A study of Mus musculus with 4 samples.

Results

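Transcripts of 10 genes of endocannabinoid synthesis, breakdown and signalling, with monoacylglycerol lipase (Mgll) at the centre, were followed in primary mouse microglia given the green tea flavan-3-ol (−)-epigallocatechin gallate (EGCG) or its vehicle. The genes were chosen by name around Mgll, which the study had called higher with EGCG in these same data. They were Mgll, Faah, Dagla, Daglb, Abhd6, Abhd12, Napepld, Naaa, Cnr1 and Cnr2. All 10 were present among the 54532 genes (22046 protein-coding) counted in both replicates. The cells came from the cortex of neonatal male CD1 mouse pups, grown as mixed glia, and were the microglia left on the dish after trypsin had lifted the astrocyte layer. In serum-free medium they received 1 µM EGCG or an equivalent amount of the solvent DMSO for 24 h, and each condition was sequenced in 2 independent biological replicates as directional libraries of polyadenylated RNA. The labels give no genotype beyond the strain.

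Endocannabinoids are lipid messengers that cells make on demand from membrane phospholipids. The diacylglycerol lipases, encoded by Dagla and Daglb, release 2-arachidonoylglycerol (2-AG), which the hydrolases encoded by Mgll, Abhd6 and Abhd12 break down, with arachidonic acid as a product. Anandamide and related acylethanolamides can be formed by the phospholipase of Napepld and are hydrolysed by the amidases of Faah and, at acidic pH, Naaa. Both kinds of messenger act on the receptors CB1 (Cnr1), abundant in neurons, and CB2 (Cnr2), typical of immune cells including microglia.

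The promoters of Mgll, Cnr1 and Cnr2 are shown because these genes carry the results on the treatment and on the receptors. Among the members with a window, they also lie at opposite ends in their content of the dinucleotide CG. Each window holds 250 bases before and 50 bases after a transcription start in RefSeq on GRCm38.p6, read 5′ to 3′ on the gene's plus strand, with CG in capitals. RefSeq gave 2 windows for Mgll, 3 for Cnr1 and 2 for Cnr2, and that nearest the annotated gene start was kept. The starts of the kept windows lay 0, 51 and 205 bases from it. The other windows of these genes are not shown. The genes themselves lie, on GRCm38 in the files, at chr6:88724412-88828360 (Mgll), chr4:33924593-33948831 (Cnr1) and chr4:135895394-135920207 (Cnr2), all on the plus strand. The Mgll window lies at chr6:88724162-88724461, Cnr1 at chr4:33924394-33924693 and Cnr2 at chr4:135894939-135895238.
Mgll: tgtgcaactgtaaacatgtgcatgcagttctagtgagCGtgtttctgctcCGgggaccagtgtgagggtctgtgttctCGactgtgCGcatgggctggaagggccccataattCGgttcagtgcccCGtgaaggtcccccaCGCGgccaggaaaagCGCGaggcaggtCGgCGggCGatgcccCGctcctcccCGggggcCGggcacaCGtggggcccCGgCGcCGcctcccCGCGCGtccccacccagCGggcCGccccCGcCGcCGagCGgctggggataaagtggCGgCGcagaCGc
Cnr1: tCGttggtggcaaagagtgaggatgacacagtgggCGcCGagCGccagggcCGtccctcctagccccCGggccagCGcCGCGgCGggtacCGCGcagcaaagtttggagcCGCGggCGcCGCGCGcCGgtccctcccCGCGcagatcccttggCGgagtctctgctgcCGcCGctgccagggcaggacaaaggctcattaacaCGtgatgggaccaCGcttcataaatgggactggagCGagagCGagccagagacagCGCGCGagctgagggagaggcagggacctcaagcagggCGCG
Cnr2: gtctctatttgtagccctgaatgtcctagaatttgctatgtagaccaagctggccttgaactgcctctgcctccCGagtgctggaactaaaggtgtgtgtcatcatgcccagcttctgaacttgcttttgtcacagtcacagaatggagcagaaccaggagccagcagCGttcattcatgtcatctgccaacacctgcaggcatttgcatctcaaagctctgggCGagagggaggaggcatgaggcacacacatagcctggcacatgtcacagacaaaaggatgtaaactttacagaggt
The Mgll window held 32 CG and the Cnr1 window 33, against 3 in the Cnr2 window. The motif searched was CG, which reads the same on both strands and cannot overlap itself. Over 32851 RefSeq windows of 300 bases the median was 7 CG, the quartiles were 3 and 20, and 94.6% held at least 1. The windows of Mgll and Cnr1 were at the 91.4 and 92.3 percentiles and that of Cnr2 at the 31.4 percentile. For the other members with a window, the count was 28 for Napepld, 24 for Abhd6, 16 for Faah, 12 for Naaa and 11 for Daglb, and 8 of the 10 genes had one. Cnr1 had the most CG of the 8 windows and the fewest reads of the 10 genes.

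The libraries held 33805071 to 54970300 counts, so that 3 counts corresponded to 0.0544 to 0.0936 CPM (counts scaled to the size of the library). The label of the cells was checked against 10 microglial markers, all above this floor in every library, with summed levels of 5834 and 8914 CPM in the vehicle and 6446 and 8659 CPM in the EGCG libraries. Of the other cell types, fibroblast markers (6 genes) summed to 422 and 160 CPM in the vehicle libraries and to 1.40 and 176 CPM in the EGCG libraries, so the replicate 1 EGCG library stood apart. Among them, the collagen gene Col1a1 had 3962 and 1344 counts with vehicle and 4 and 2040 with EGCG. Neuronal markers (5 genes) summed to 17.8 and 16.7 CPM in replicate 1, and to 0.928 and 1.16 CPM in replicate 2. Border macrophage markers (5 genes) summed to 457 to 765 CPM, astrocyte markers (7 genes) to 14.2 to 22.5 CPM, oligodendrocyte lineage markers (7 genes) to 112 to 114 CPM and endothelial markers (4 genes) to 70.1 to 177 CPM. The border macrophage sum was mostly Mrc1 (214 and 354 CPM with vehicle, 245 and 327 CPM with EGCG) and Pf4. Pf4 went the other way between replicates, with 451 and 142 CPM with vehicle and 520 and 130 CPM with EGCG. Lyve1, Cbr2 and Cd163 had at most 28 counts. Above the floor in every library were 6 of the 7 oligodendrocyte lineage markers and 2 of the 4 endothelial markers. In the first list Mbp had 2280 to 3855 and Mag 245 to 331 counts, but Mog at most 1. In the second list Flt1 had 1955 to 5740 and Cdh5 13 to 79 counts, but Cldn5 had 0. Of the 4 adipocyte markers, Adipoq, Plin4 and Lep had 0 counts and Plin1 was under the floor. In such bulk samples, fewer cells of a type and less RNA per cell cannot be told apart.

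Per length, Abhd12, Mgll and Daglb were the most abundant of the 10 transcripts and the receptor CB1 (Cnr1) the least. Levels per length are CPM per kilobase of gene length (RPKM), with errors as SD over the 2 vehicle libraries. Abhd12, whose product is also known as a lipase of lysophosphatidylserine, was highest at 142 ± 45.2 RPKM (SD, n = 2). Mgll followed at 21.0 ± 6.75 RPKM and Daglb at 16.2 ± 1.99 RPKM. Over the 4 libraries the ranges of Mgll (16.2 to 34.2 RPKM) and Daglb (14.8 to 21.2 RPKM) overlapped, whereas Abhd12 (110 to 174 RPKM) lay above both. Within each library Mgll lay above Daglb per length but below it in CPM. Mgll had 131 and 82.5 CPM with vehicle and 174 and 109 CPM with EGCG. Daglb had 168 and 142 CPM with vehicle and 203 and 143 CPM with EGCG. Of the 4 annotated Daglb transcripts, 3 retain an intron, which lengthens the gene model the level is divided by. The order of these genes thus depends on the length used.

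**Figure D1:**
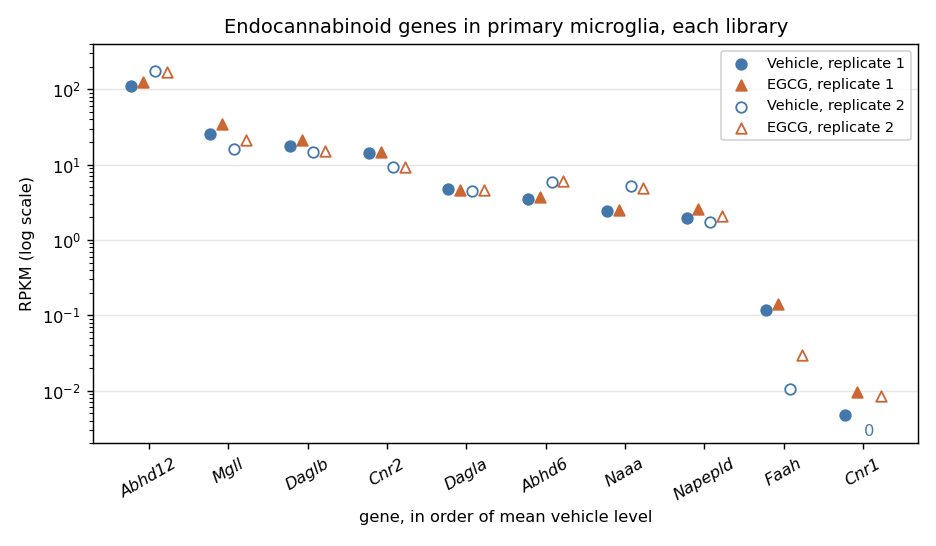
Levels of the 10 genes in each library. The y axis gives RPKM on a log scale, the x axis the genes in order of their mean vehicle level, circles are vehicle, triangles EGCG, filled symbols replicate 1 and open symbols replicate 2. Abhd12 lies between 110 and 174 RPKM, Mgll between 16.2 and 34.2 RPKM, and Cnr1 below 0.01 RPKM, with 1 vehicle library at 0.

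Among the receptors, Cnr2 had 14.4 and 9.32 RPKM with vehicle and 14.7 and 9.36 RPKM with EGCG. Its range lay below that of Daglb and above that of Dagla. Cnr1 had 1 and 0 counts with vehicle and 2 and 3 with EGCG, at or under the floor of 3 counts in every library, so no fold change is given and it entered no test. The RNA of CB2 was measured in every library, while that of CB1 was above the floor in 0 of 4.

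The next genes lay close together. Dagla had 4.75 and 4.49 RPKM with vehicle and 4.68 and 4.55 RPKM with EGCG. Abhd6, an integral membrane hydrolase of 2-AG, had 3.54 and 5.88 RPKM with vehicle and 3.72 and 6.14 RPKM with EGCG. Naaa had 2.41 and 5.18 RPKM with vehicle and 2.47 and 4.85 RPKM with EGCG. The ranges of these neighbours over the 4 libraries overlapped, as did those of Naaa and Napepld (1.72 to 2.55 RPKM). Within each library Abhd6 lay above Naaa. The order of Dagla and Abhd6, and of Naaa and Napepld, differed between libraries. Faah was far lower, at 0.117 and 0.0104 RPKM with vehicle and 0.143 and 0.0301 RPKM with EGCG. Its level rested on 30 and 3 counts with vehicle and 36 and 13 with EGCG, and 5 of its 8 annotated transcripts retain an intron, which lengthens the gene model the level is divided by.

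Daglb exceeded Dagla, and Naaa exceeded Faah, in every library. The ratio of Daglb to Dagla, per length, was 3.71 and 3.30 with vehicle and 4.54 and 3.29 with EGCG. The ratio of Naaa to Faah was 20.6 in the replicate 1 vehicle library and 17.3 and 161 in the EGCG libraries, and none is given for the replicate 2 vehicle library, with its 3 Faah counts. Mgll made up 18.5% and 8.28% of the summed RPKM of Mgll, Abhd6 and Abhd12 with vehicle and 21.1% and 10.9% with EGCG. These are shares of RNA per length and say nothing of enzyme activity.

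Mgll had more RNA with EGCG than with vehicle in both replicates, by nearly the same ratio. It had 131 CPM with vehicle and 174 CPM with EGCG in replicate 1, and 82.5 CPM with vehicle and 109 CPM with EGCG in replicate 2. The groups overlapped, because the replicate 2 EGCG library lay below the replicate 1 vehicle library. The ratio of EGCG to vehicle was 1.33 (95% interval 1.28 to 1.38) in replicate 1 and 1.32 (1.27 to 1.38) in replicate 2, intervals that cover counting error only. In the comparison of treatment groups alone, Mgll had a log2 fold change of 0.41 (SE 0.36, 95% interval -0.59 to 1.40; edgeR quasi-likelihood test, adjusted p = 1.00 after Benjamini-Hochberg adjustment).

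**Figure D2:**
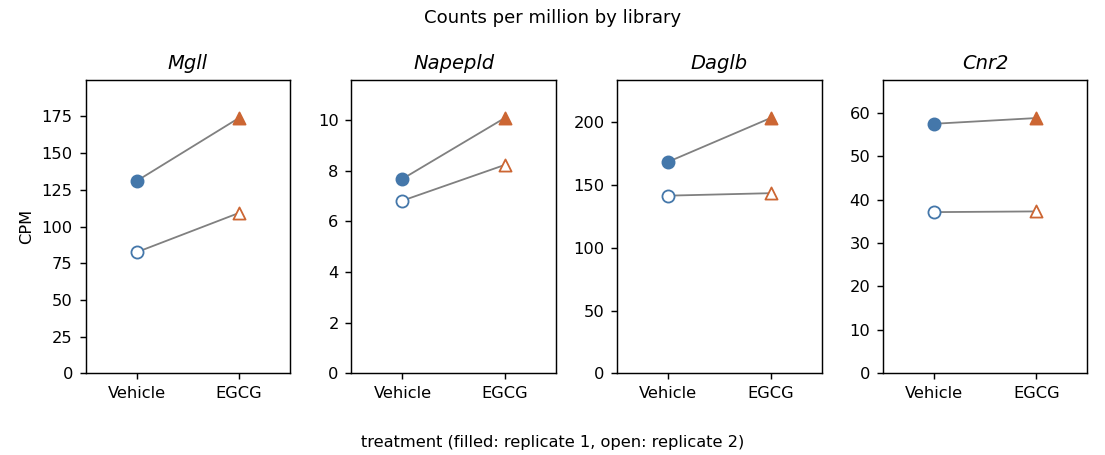
Mgll, Napepld, Daglb and Cnr2 in CPM (y axis, from 0) by treatment (x axis). Each symbol is 1 library, filled for replicate 1 and open for replicate 2, and lines join libraries of the same replicate number. Mgll went from 131 to 174 CPM and from 82.5 to 109 CPM, while Cnr2 lay between 57.4 and 58.7 CPM and between 37.1 and 37.3 CPM.

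With the replicate number as a block, the Mgll value was again 0.41 (SE 0.05, 95% interval 0.28 to 0.53; edgeR quasi-likelihood test, adjusted p = 0.659). By its unadjusted p, which passed 0.05, Mgll ranked 6 of 13811 tested genes, against 734 without the block. DESeq2 with the same block gave 0.40 (SE 0.09, adjusted p = 0.0251), which passed the adjusted threshold of 0.1. The study had called Mgll by DESeq2 at this threshold in the same libraries, so the rank and this call are not independent support. The labels number the replicates but do not say that same-numbered libraries share a preparation, and each number is also 1 deposited table, so number and table cannot be told apart. In replicate 1 the fibroblast markers summed to 422 CPM with vehicle and 1.40 CPM with EGCG. In replicate 2 they summed to 160 and 176 CPM. Their part in the Mgll difference was not tested. Without the block, where the gap between replicates enters the estimate, leaving out 1 library gave a log2 fold change of 0.03 (without the replicate 1 EGCG library), 0.09 (replicate 2 vehicle), 0.67 (replicate 2 EGCG) or 0.78 (replicate 1 vehicle).

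Napepld was the other member that was higher with EGCG in both replicates by more than counting error. It had 7.68 and 6.82 CPM with vehicle and 10.1 and 8.23 CPM with EGCG, and was the only one of the 9 tested members whose groups did not overlap, as for 11.9% of all tested genes. Its ratio was 1.31 (95% interval 1.11 to 1.55) in replicate 1 and 1.21 (1.03 to 1.41) in replicate 2. The log2 fold change was 0.34 (SE 0.23; edgeR quasi-likelihood test, adjusted p = 1.00). With the block it was 0.33 (SE 0.12, 95% interval 0.04 to 0.63; edgeR quasi-likelihood test, adjusted p = 0.995), past the unadjusted threshold of 0.05 that DESeq2 with the block did not pass.

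Of the other 2-AG hydrolases, Abhd12 had 311 and 492 CPM with vehicle and 351 and 480 CPM with EGCG. Its ratio was above 1 in replicate 1 (1.13, 95% interval 1.10 to 1.16) and below 1 in replicate 2 (0.976, 0.958 to 0.995), and its log2 fold change was 0.05 (SE 0.32; edgeR quasi-likelihood test, adjusted p = 1.00). Abhd6 had 8.38 and 13.9 CPM with vehicle and 8.80 and 14.5 CPM with EGCG, a log2 fold change of 0.07 (95% interval -1.06 to 1.19; edgeR quasi-likelihood test, adjusted p = 1.00). Neither passed a threshold, with or without the block.

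Of the 2-AG synthases, Daglb had 168 and 142 CPM with vehicle and 203 and 143 CPM with EGCG, so that its ratio was 1.21 (95% interval 1.16 to 1.25) in replicate 1 and 1.01 (0.979 to 1.05) in replicate 2. Exons of Daglb share 2309 bases with Rac1 on the opposite strand. The study calls its mRNA quantification strand-specific but names no counting program or setting, and the split of reads between these genes depends on that setting. Rac1 had 11239 and 17617 counts with vehicle and 11550 and 27382 with EGCG. Dagla had 27.3 and 25.8 CPM with vehicle and 26.9 and 26.2 CPM with EGCG, and was the most even member over the libraries. With the block its log2 fold change was 0.00 (95% interval -0.16 to 0.16; edgeR quasi-likelihood test).

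The receptor Cnr2 and the amidases passed no threshold. Cnr2 had ratios of 1.02 (95% interval 0.959 to 1.09) and 1.00 (0.937 to 1.08) in replicates 1 and 2, and with the block an interval of -0.13 to 0.17 on the log2 scale by edgeR's quasi-likelihood test. Naaa had 8.96 and 19.3 CPM with vehicle and 9.21 and 18.0 CPM with EGCG, with ratios of 1.03 (0.871 to 1.21) and 0.936 (0.849 to 1.03). Faah was not resolved at this depth: its ratios were 1.23 (0.736 to 2.07) and 2.88 (0.791 to 15.8). Naaa shares a stretch of 549 bases at 92.0% identity with Ccdc167, which had 154 to 288 counts. It shares 583 bases at 94.7% identity with Olfr54, which had 0 counts in every library. Whether reads of Naaa were assigned to these genes, or the reverse, was not tested.

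**Figure D3:**
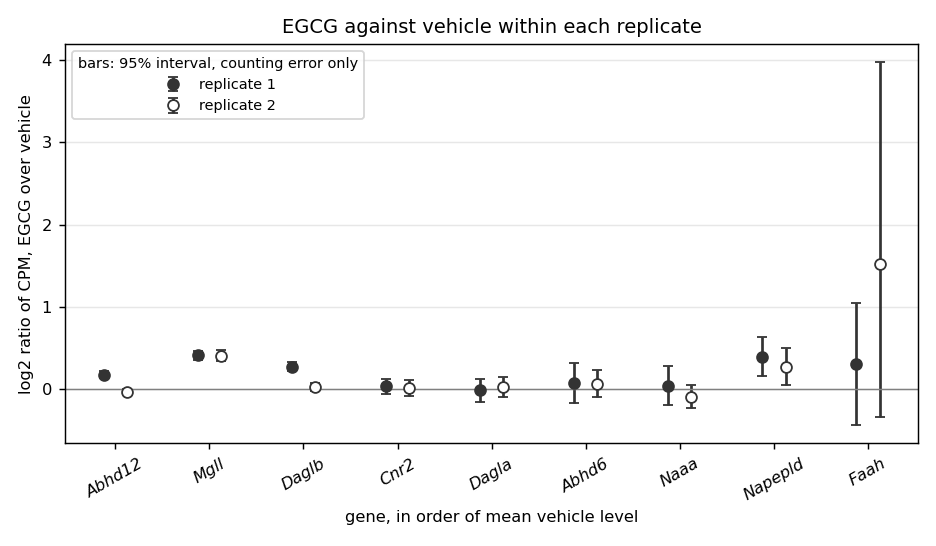
Ratio of EGCG to vehicle within each replicate for the 9 tested genes, as log2 of CPM (y axis), in order of mean vehicle level (x axis). Bars are 95% intervals for counting error only, filled symbols replicate 1 and open symbols replicate 2. Mgll lies at 0.41 and 0.40 with short bars that do not reach 0, and Faah has the widest bars.

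Of the 9 members tested, 0 were called at an unadjusted p under 0.05 and 0 at an adjusted p under 0.1 in the comparison without the block, where 16 of 13811 genes (0.116%) and 0 genes (0%) were called. By edgeR with the block, 2 of 9 (Mgll and Napepld, both higher) passed the unadjusted threshold, against 3.21% of all genes, and 0 passed the adjusted threshold, against 0.00724%. DESeq2 with the block called 1 of 9 (Mgll) at each threshold, against 1.11% and 0.0507%. EGCG was higher in both replicates for 6 of 9 members (29.9% of all genes) and lower in both for 0 of 9 (20.6%). The groups did not overlap for 1 of 9 (11.9%). The median log2 fold change was 0.07 over the members and 0.01 over all tested genes, and no p is given for the list. With 2 libraries against 2, an exact permutation test of a single value cannot go below p = 0.333.

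The members shared a gap between replicates with most genes. For 8 of 9 members, all but Napepld, the replicate 1 and replicate 2 libraries did not overlap, which was also so for 76.5% of all genes, and for 7 of 9 the vehicle libraries lay further apart than EGCG and vehicle did in either replicate, as for 71.3% of all genes. Naaa, Abhd6 and Abhd12 were higher in replicate 2, with vehicle ratios to replicate 1 of 2.15 (95% interval 1.87 to 2.47), 1.66 and 1.58, and 6 members were lower. Mgll was at 0.630 (0.601 to 0.660) and Cnr2 at 0.646 of replicate 1. Faah, with 3 against 30 counts, had a ratio of 0.0895 (0.0175 to 0.288). Among markers, the neuronal list moved the same way, from 17.8 to 0.928 CPM, and microglial markers the other way, from 5834 to 8914 CPM; their part in the differences was not tested. Since each replicate was a table of its own, a difference between replicates cannot be told apart from one between tables.

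Around these 10 genes stand 55 further genes of the pathway, 43 of them tested. They comprise other enzymes of synthesis, enzymes of monoglyceride and arachidonate handling, oxygenases, other receptors and carriers. None passed an unadjusted p under 0.05 without the block by edgeR's quasi-likelihood test (0 of 43), and 3 of 43 did with it, against 3.21% of all genes. These were Pparg, a nuclear receptor for fatty acid ligands, and the fatty acid binding proteins Fabp3 and Fabp4, and all 3 were higher with EGCG. Over the 43 genes the median log2 fold change without the block was 0.00064, with 11 genes higher and 10 lower in both replicates.

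Pparg had 5.73 and 4.01 CPM with vehicle and 8.33 and 4.82 CPM with EGCG. Its log2 fold change with the block was 0.40 (edgeR quasi-likelihood test, adjusted p = 0.995), and DESeq2 with the block did not call it. Fabp4, a carrier known from adipocytes and macrophages, had 49.2 and 41.1 CPM with vehicle and 72.8 and 45.8 CPM with EGCG, and a log2 fold change with the block of 0.36 (edgeR quasi-likelihood test, adjusted p = 0.995) that DESeq2 with the block also put past the unadjusted threshold. Fabp3 had 51.5 and 22.6 CPM with vehicle and 62.6 and 24.7 CPM with EGCG (log2 fold change with the block 0.20, edgeR quasi-likelihood test, adjusted p = 0.995), and DESeq2 with the block did not call it. The groups of all 3 genes overlapped. Without the replicate 1 EGCG library, the log2 fold changes with no block were -0.017 for Pparg, 0.016 for Fabp4 and -0.59 for Fabp3. Leaving out another library gave 0.18 to 0.74, 0.25 to 0.66 and -0.26 to 0.95 in the same order. In these fits the gap between replicates enters the estimate. Within replicate 2, the log2 differences of EGCG minus vehicle were 0.26, 0.15 and 0.12. Of the 4 adipocyte markers, Adipoq, Plin4 and Lep were at 0 in all 4 libraries. Plin1 made up their sum, which was at most 0.0610 CPM and under the floor. The part of adipocytes in these differences was not tested.

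**Figure D4:**
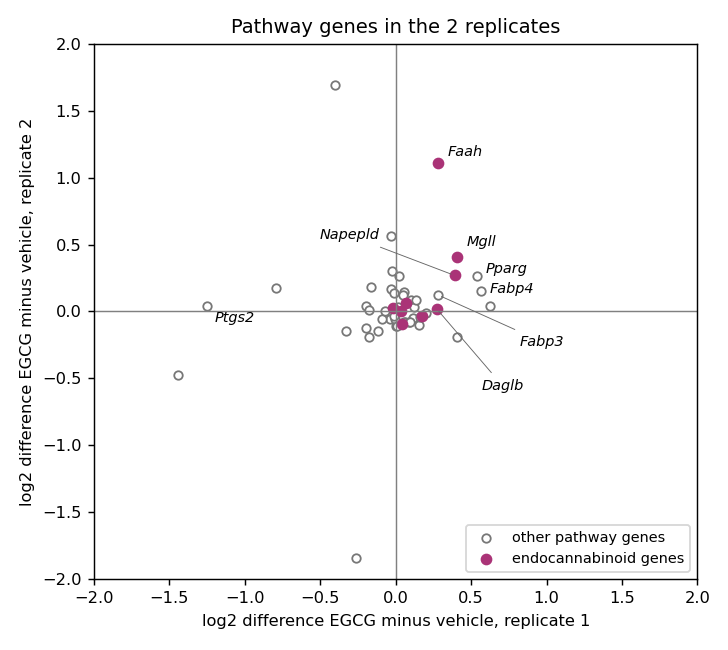
Log2 difference of EGCG minus vehicle in replicate 1 (x axis) and replicate 2 (y axis) for the 9 tested endocannabinoid genes (filled) and 43 other pathway genes (open). Mgll lies at 0.41 and 0.40, Napepld at 0.39 and 0.27, and Ptgs2, named after its values were seen, at -1.25 and 0.04.

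Among the synthesis genes, Inpp5d (a phosphatase of phosphoinositides) and Plcg2 (a phospholipase C) had the most reads, at a mean of 271 and 186 CPM, and log2 fold changes of -0.05 and 0.02. Of 13 tested synthesis genes, 0 were called with or without the block. Acsl4, which couples arachidonic acid to coenzyme A, and Ddhd1, a phospholipase, were the most abundant of the 12 handling genes tested, at 241 and 103 CPM, with log2 fold changes of 0.05 and 0.08. Among the 6 oxygenases tested, Ptgs1 (cyclooxygenase 1) and Alox5 (the arachidonate 5-lipoxygenase) led at 121 and 34.5 CPM, with log2 fold changes of -0.05 and -0.03. Ptgs2, the inducible cyclooxygenase that can also oxygenate 2-AG, had 13.4 and 49.0 CPM with vehicle and 5.62 and 50.5 CPM with EGCG, log2 differences of -1.25 in replicate 1 and 0.04 in replicate 2. Of the receptors, the channel Trpv2 and the nuclear receptor Ppard led the 7 tested genes, at 173 and 48.7 CPM, and had log2 fold changes of 0.02 and -0.13. The carriers Fabp5 and Scp2 led at 1074 and 122 CPM, with log2 fold changes of 0.08 and 0.00064. None of these 10 abundant genes was called.

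Transcripts with a pattern most like Mgll were found by the root mean square difference of log2 CPM, each gene centred on its mean over the 4 libraries, among 11620 protein-coding genes with at least 10 counts in every library. The nearest were Olfr110 (0.0076), Tmem144 (0.0402), Pik3c2b (0.0420), Ifit1bl2 (0.0537) and B3gnt3 (0.0561), and 29 genes lay within 0.1. Olfr110 had 103 and 72 counts with vehicle and 135 and 146 with EGCG. The measure rests on 4 libraries and on the replicate gap as much as on the treatment gap, and is a description only.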

How the data were processed

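RNA of primary microglia from CD1 mice was measured in 4 libraries, 2 given 1 µM EGCG and 2 given vehicle for 24 h. The authors deposited raw read counts per gene without normalization, in 1 table per replicate. Per the labels, reads were aligned with HISAT2 to GRCm38.p6, and the study describes the quantification as strand-specific. The counting program, its options and its annotation are not given in the sources used here. Gene lengths are the authors' deposited values.

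The tables were joined on the gene identifier. The 697 and 329 separately assembled loci were left out, and 13811 protein-coding genes whose 4 counts summed to 10 or more were kept. Cnr1 fell below this minimum. Protein-coding genes took 98.0% to 98.1% of counts. The quasi-likelihood test of edgeR 4.0.16 was run in R 4.3.3 on TMM-normalized libraries (Benjamini-Hochberg adjustment over all genes tested) and, as an alternative, DESeq2 1.42.0, with treatment as the only term or with the replicate number as a block. The study's methods name the contrast of EGCG with vehicle and mention no other term, without saying that there was none. Thresholds were an unadjusted p under 0.05 and an adjusted p under 0.1. A prior count of 2 was added before taking log2 of single libraries. The p-values measure only the spread between these libraries, and edgeR and DESeq2 estimate it with information shared across genes. With the block few residual degrees of freedom per gene remained. The p-values and standard errors of those fits therefore rest largely on the shared spread. The scripts were tested on simulated counts.

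Promoter windows were taken from RefSeq. Shared stretches were searched with BLAST 2.17.0 (at least 90% identity over 200 nucleotides), and overlaps with GENCODE annotation. The members, the pathway and marker lists, and the rule for named genes were chosen with earlier results of these data known. Genes named are the members, pathway genes at an unadjusted p under 0.05, the 2 most abundant of each pathway list, the 5 most like Mgll, and markers. Ptgs2 was named after its values were seen.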

Additional observations from a re-analysis of the deposited data

How the results depend on the processing

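Mgll kept its direction in all alternatives. With the replicate block its log2 fold change was past the unadjusted threshold of 0.05, at 0.41 by edgeR, 0.40 by DESeq2 and 0.41 by the newer dispersion method, an alternative added after seeing the data. It ranged from 0.03 to 0.78 when 1 library was left out (0.67 without the replicate 2 EGCG library and 0.78 without the replicate 1 vehicle library). The count of all genes at an unadjusted p under 0.05, 16, was 444 with the replicate block by edgeR, 153 by DESeq2 with the block, 38 by the newer dispersion method, 524 by that method with the block, 3 with at least 10 counts required in every library, 35 with all biotypes, and 8 to 131 with 1 library left out. At an adjusted p under 0.1 it was 0, against 1 by DESeq2, 1 with the block, 7 by DESeq2 with the block and 2 by the newer method with the block. The 10 members gave 2 calls at an unadjusted p with the block, 1 by DESeq2 with the block and 2 by the newer method with the block, and 1 at an adjusted p by DESeq2 with the block. The other pathway genes gave 3, 1 and 3, and 0 to 1 with 1 library left out. Dagla, near 0, turned sign by DESeq2 (-0.0072), by DESeq2 with the block (-0.0061), with RLE (-0.0071), upper-quartile (-0.020) and total-count scaling (-0.032), with 10 counts in every library (-0.011) and with all biotypes (-0.0019). Cnr2 did so with upper-quartile (-0.0028) and total-count scaling (-0.016). Leaving out 1 library turned Dagla (-0.057 to 0.043), Cnr2 (-0.35 to 0.37), Abhd6 (-0.37 to 0.46), Abhd12 (-0.24 to 0.40), Faah (-1.07 to 2.99), Daglb (-0.11 to 0.36), Naaa (-0.65 to 0.59), Pparg (-0.017 to 0.74) and Fabp3 (-0.59 to 0.95). The cause of these turns was not tested. With 1 library left out and no block, 1 treatment held a single replicate, so the gap between replicates entered the estimate. Within replicates 1 and 2, the log2 differences of Naaa were 0.039 and -0.095. Faah gave no value with 10 counts required in every library. The order of levels kept all 10 places except without the replicate 1 vehicle library (7). Across genes, the difference between vehicle libraries correlated with that between EGCG libraries (r = 0.64, 13811 genes, which are not independent), and the treatment differences of the replicates did not (r = -0.05); there are only 2 pairs, and the labels do not say what a number shares. The chi-square per gene was 12.4 and 10.3 between libraries of the same number and 277.6 and 276.2 between libraries of the same treatment, so no library was a copy of another. Faah and Cnr1 were limited by depth.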

Other observations

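Gm26588, an antisense gene that shares 167 exon bases with Mgll, had 25 and 6 counts with vehicle and 21 and 8 with EGCG. These counts are few against the 3024 to 6025 of Mgll, and the split of reads over the shared bases depends on the strand setting of the counting, which the study calls strand-specific without naming a program.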
